A study of Mus musculus with 6 samples.

Results

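The enzymes that make and salvage deoxynucleotides, the building blocks of DNA, were followed as 9 genes chosen by name: Rrm1, Rrm2, Rrm2b, Tyms, Tk1, Dut, Dck, Dctd and Dtymk. All 9 were among the 23420 genes of the count table and passed the filter on low counts, which left 12672 genes for testing. Messenger RNA was sequenced from cultured mouse epidermal keratinocytes, 3 libraries labelled WT (WT 2, WT 3 and WT 4) and 3 labelled iKO, for induced knockout (iKO 3, iKO 4 and iKO 33, the last named after its column). Every culture, WT included, was homozygous for floxed Gata6 (Gata6 fl/fl), and Gata6 encodes a zinc finger transcription factor. K14CreERT2, in which the keratin 14 promoter drives a tamoxifen-inducible Cre recombinase, was present in the iKO cultures and absent from the WT cultures. All cells grew in low-calcium medium and were used at passage 8 to 10 and given 1 µM 4-hydroxytamoxifen for 6 hours. The labels are silent on whether the libraries of a group stem from different cultures or animals, so every p-value reflects only how far these libraries spread, and that spread may be technical.

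Ribonucleotide reductase turns ribonucleoside diphosphates into deoxyribonucleoside diphosphates and sets the supply of DNA precursors. Its large catalytic subunit, Rrm1, pairs either with Rrm2, the small subunit that cycling cells make for S phase, or with Rrm2b, a small subunit induced by p53 that also serves resting and damaged cells. A second branch makes thymidylate: Dctd deaminates dCMP to dUMP, Dut hydrolyses dUTP to dUMP and keeps uracil out of DNA, Tyms methylates dUMP to dTMP with a folate cofactor, and Dtymk phosphorylates dTMP. The salvage kinases Tk1 and Dck phosphorylate thymidine and deoxycytidine taken up from outside the cell or released by breakdown. In the epidermis these enzymes are associated with dividing cells of the basal layer and of the hair follicle matrix.

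Reads assigned to genes numbered between 21943467 and 83337263 per library. The share of a library in HTSeq's summary rows, which hold reads given to no gene, was 34.8% to 35.5% with the WT label and 27.4% to 32.0% with the iKO label; these do not overlap, and their part in the results was not tested. Gata6, the targeted gene, was higher in the libraries labelled iKO (17.4 ± 3.44 normalised CPM, read counts scaled to a common library size) than in those labelled WT (2.92 ± 2.43; SD, n = 3). Gene counts can include exons outside the deleted part, so this does not check the deletion, and groups are named by their labels throughout. Xist stood between 605 and 889 CPM in the libraries labelled WT and at most at 2.62 CPM in those labelled iKO, and the Y-linked gene Eif2s3y showed the reverse (at most 0.0507 against at least 33.7 CPM). Sex of the cells and the genotype label therefore cannot be told apart in any comparison here. Summed levels of 8 keratinocyte markers ranged from 31723 to 44303 CPM in the libraries labelled WT. In those labelled iKO they ranged from 33356 to 48810 CPM, and Krt5 and Krt14 made up most of these sums. Krt15 had the lowest log2 fold change among the markers (-1.28, SE 0.49), with groups that overlapped. Of the 8, 4 were lower and 4 higher: Trp63, the transcription factor of basal cells, had a log2 fold change of -0.68 (SE 0.096) and the adhesion gene Cdh1 one of 0.55 (SE 0.12), each with groups apart. DESeq2 called both (adjusted p = 3.83e-07 and 0.00934), edgeR neither (adjusted p = 0.0529 and 0.130), and the part of these differences in the results was not tested. The summed ranges were 0.692 to 2.39 against 0.959 to 3.18 CPM for 6 fibroblast markers, 6.08 to 11.9 against 5.69 to 8.46 for 6 melanocyte markers, and 1.91 to 4.17 against 2.62 to 3.26 for 6 leukocyte markers. For 5 endothelial markers, mostly Kdr, they were 9.31 to 19.0 against 7.29 to 8.94 CPM, which do not overlap, and the part of these low levels in the results was not tested. Dcn, Lum, Dct, Cd207 and Emcn had no count in any library.

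Promoter sequences in the RefSeq table (GRCm38.p6, the mm10 build) were matched for 8 of the 9 genes, all but Rrm2b. They are shown for the genes of the reductase subunits Rrm1 and Rrm2, for Dctd and Dtymk, which had the largest differences between groups, and for Tyms, whose groups overlapped. Each is the 250 bases before a start site, written 5′ to 3′ on the strand of the gene, and capitals mark the CCAAT box or its reverse complement.
Rrm1, chr7:102441445-102441694, plus strand: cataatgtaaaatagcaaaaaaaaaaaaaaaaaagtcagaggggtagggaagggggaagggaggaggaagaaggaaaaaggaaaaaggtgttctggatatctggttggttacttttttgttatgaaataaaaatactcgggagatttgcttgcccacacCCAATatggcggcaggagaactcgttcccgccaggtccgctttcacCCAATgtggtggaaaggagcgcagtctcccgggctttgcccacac
Rrm2, chr12:24708004-24708253, plus strand: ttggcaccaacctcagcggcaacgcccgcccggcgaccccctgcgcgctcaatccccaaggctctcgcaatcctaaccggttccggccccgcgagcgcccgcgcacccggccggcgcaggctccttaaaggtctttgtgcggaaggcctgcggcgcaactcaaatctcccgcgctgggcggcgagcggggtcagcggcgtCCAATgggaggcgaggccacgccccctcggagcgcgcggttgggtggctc
Dctd, chr8:48109708-48109957, plus strand: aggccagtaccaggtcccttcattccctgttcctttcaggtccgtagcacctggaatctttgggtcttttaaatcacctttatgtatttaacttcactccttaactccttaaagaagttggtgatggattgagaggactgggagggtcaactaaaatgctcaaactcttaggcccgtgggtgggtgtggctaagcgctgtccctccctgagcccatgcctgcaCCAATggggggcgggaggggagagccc
Dtymk, chr1:93801935-93802184, minus strand: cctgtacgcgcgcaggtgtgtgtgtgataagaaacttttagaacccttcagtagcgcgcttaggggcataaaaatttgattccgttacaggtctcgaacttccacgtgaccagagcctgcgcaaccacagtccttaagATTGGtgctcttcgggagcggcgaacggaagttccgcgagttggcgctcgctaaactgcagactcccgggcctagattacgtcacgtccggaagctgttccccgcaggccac
Tyms, chr5:30073626-30073875, minus strand: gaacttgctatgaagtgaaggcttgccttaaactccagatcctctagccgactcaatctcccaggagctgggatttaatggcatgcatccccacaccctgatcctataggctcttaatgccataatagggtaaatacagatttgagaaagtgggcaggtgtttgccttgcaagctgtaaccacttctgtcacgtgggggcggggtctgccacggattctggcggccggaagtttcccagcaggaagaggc
Motifs were searched on both strands in windows reaching from 250 bases before to 50 bases after the start site. CCAAT was found for 4 of the 8 genes, namely Rrm1, Rrm2, Dctd and Dtymk, and in 37.4% of all 32851 promoter windows of that length. A GC box, GGGCGG, was found for 6 genes (Dck, Dctd, Dut, Rrm2, Tk1 and Tyms) and in 35.7% of all windows. None of the 8 held an E2F word (TTTGGCGC, TTTCCCGC, TTTGCCGC or TTTCGCGC), against 2.26% of all windows, or TATAAA, against 13.6%. Only these exact words were searched, and they are rare in all windows, so their absence does not show that a promoter lacks E2F sites. Rrm1 held CCAAT in both of the marked places, and Dctd has 3 annotated windows, of which the printed 1 and another that overlaps it held CCAAT. A gene was counted if any of its windows held the motif, whereas the shares are of windows, so these are not in the same unit. Matches of different motifs did not overlap. A match is a description of the letters and not of a bound site.

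Transcripts of the 9 genes spanned a wide range of levels. Per kilobase of annotated exon, the 3 libraries labelled WT gave 210 ± 36.4 CPM per kb for Rrm2, 141 ± 7.69 for Rrm1 and 62.8 ± 8.73 for Tk1 (SD, n = 3). The per-length levels of these 3 genes did not overlap with each other across the libraries labelled WT. Dut (34.1 ± 5.96 CPM per kb), Dtymk (30.9 ± 2.23) and Tyms (26.9 ± 3.49) followed with ranges that overlapped. Dck (18.0 ± 2.07) and Dctd (17.3 ± 1.28) overlapped as well, and Rrm2b was lowest at 2.82 ± 0.249 CPM per kb. For scale, the mitochondrial salvage kinases Dguok and Tk2 stood at 10.8 ± 0.113 and 5.39 ± 0.365 CPM per kb in the same libraries. In the libraries labelled iKO the per-length order was Rrm2 (159 ± 27.3), Rrm1 (109 ± 5.19), Tk1 (59.9 ± 3.80), Dut (27.1 ± 5.42), Tyms (23.7 ± 2.48), Dtymk (19.5 ± 3.15), Dck (14.5 ± 1.06), Dctd (11.1 ± 0.700) and Rrm2b (3.91 ± 0.110 CPM per kb). Tyms and Dtymk stood in the opposite order here, and their ranges overlapped, with the lowest Tyms value (21.3) below the highest Dtymk value (22.8).

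The comparison addresses which of these transcripts differ between keratinocytes labelled iKO and WT for Gata6. The count of Gata6 itself was higher with the iKO label, which does not check the deletion. Relative to the libraries labelled WT, those labelled iKO had lower levels of 8 of the 9 genes and a higher level of 1, Rrm2b. Their median log2 fold change was -0.33, where all 12672 tested genes had a median of 0.0091 and 48.8% of them a negative value. None of the 9 passed edgeR's quasi-likelihood test at an adjusted p of 0.05. That test called 43 genes, 0.339% of those tested. An unadjusted p under 0.05 was reached by 5 of the 9, of which 4 were lower (Rrm1, Dctd, Dtymk and Dck) and 1 higher (Rrm2b); the background was 7.70% of tested genes lower and 7.32% higher. DESeq2, the other count test, called Rrm1, Dctd and Dtymk lower, with 2.63% of the genes it tested called lower. The libraries of the groups did not overlap for 4 genes lower (the same 4 as above) and for Rrm2b higher, against 11.3% and 10.5% of all tested genes; without WT 3, 7 genes were lower in this way, against 18.0% of all tested genes. The 9 genes together summed to 1451 ± 80.8 CPM under the WT label and 1136 ± 93.2 CPM under the iKO label (SD, n = 3). Rrm1 and Rrm2 made up most of both sums, with means of 564 and 460 CPM under the WT label and 435 and 349 CPM under the iKO label. In bulk RNA, fewer cells in S phase and less of these transcripts per cell cannot be told apart.

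**Figure D1:**
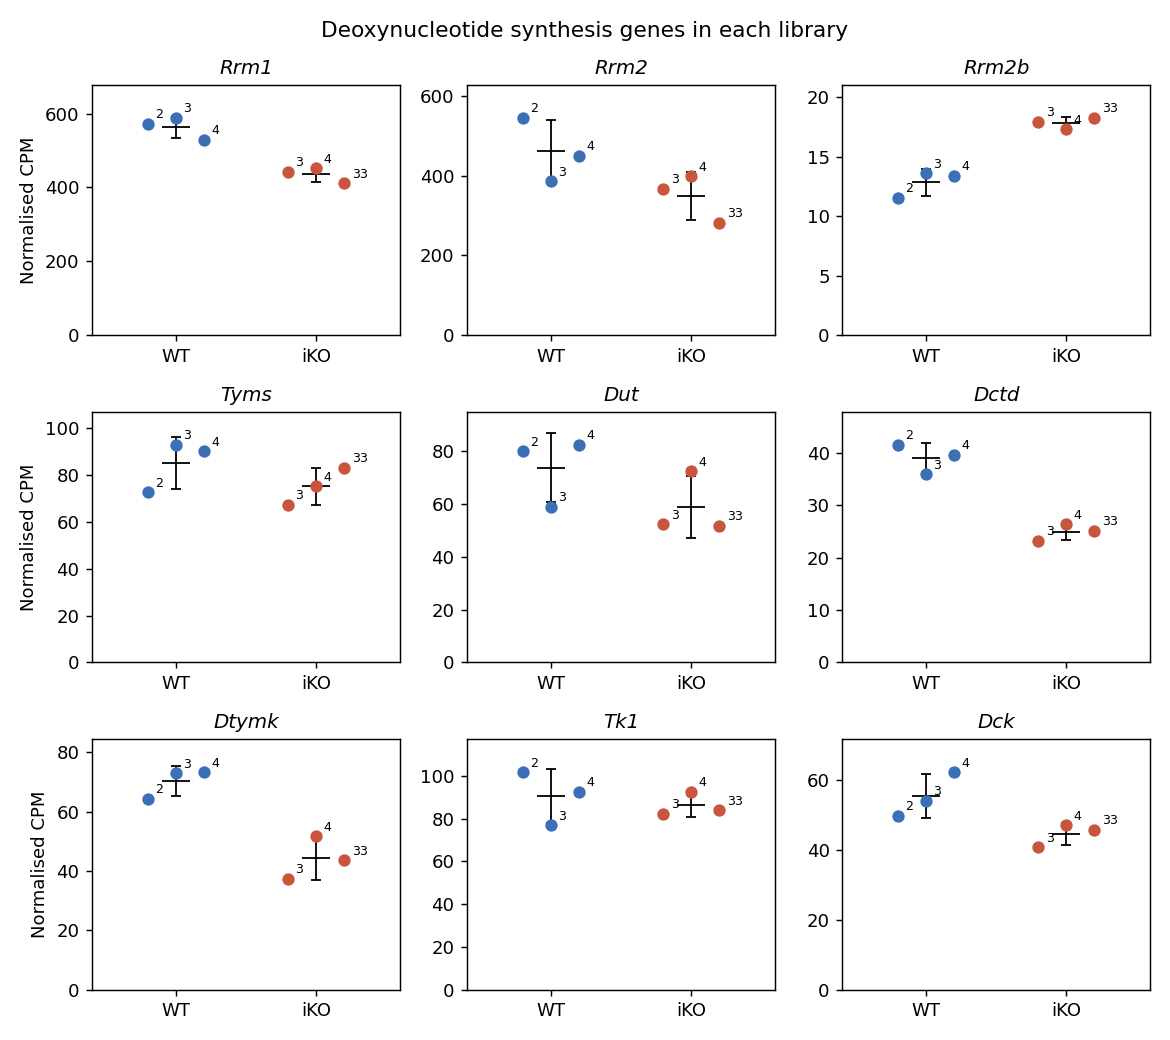
Normalised CPM of each of the 9 genes in every library (points, numbered by library; blue, labelled WT; red, labelled iKO), with the group mean and SD (n = 3) in black; each vertical axis starts at 0. Groups are apart for Rrm1, Dctd, Dtymk and Dck, with lower values in the libraries labelled iKO, and for Rrm2b, with higher values; those of Rrm2, Tyms, Dut and Tk1 overlap.

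Among the reductase subunits, Rrm1 (chromosome 7, 102441695 to 102469771, plus strand, mm10) measured 573, 589 and 529 CPM in WT 2, WT 3 and WT 4. In iKO 3, iKO 4 and iKO 33 it measured 442, 451 and 412 CPM. Every library labelled WT lay above every library labelled iKO. The log2 fold change was -0.37 (SE 0.10, approximate 95% interval -0.61 to -0.13), a level 22.8% lower, and it missed the threshold in edgeR (adjusted p = 0.176). DESeq2 called it (adjusted p = 0.0432), and over all alternatives the adjusted p ranged up to 0.404. The annotation lists Gm45399, which overlaps the Rrm1 gene on the same strand, so strand cannot tell its reads apart.

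Rrm2 (chromosome 12, 24708241 to 24714146, plus strand), the S phase small subunit, measured 545, 386 and 449 CPM in WT 2, WT 3 and WT 4 and 367, 398 and 282 CPM in iKO 3, iKO 4 and iKO 33. The groups overlapped, with iKO 4 above WT 3, and WT 2 was the highest library and iKO 33 the lowest. Its log2 fold change of -0.40 (SE 0.18, interval -0.82 to 0.024) was close to that of Rrm1 with a wider error, and missed the edgeR threshold (adjusted p = 0.359). It ranged from -0.26 without WT 2 to -0.51 without WT 3, and was -0.13 when only the libraries numbered 3 and 4 were compared within their numbers.

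Rrm2b (chromosome 15, 37923952 to 37961318, minus strand), the p53-inducible small subunit, went the other way. It measured 11.6, 13.6 and 13.4 CPM in WT 2, WT 3 and WT 4 against 17.9, 17.3 and 18.3 CPM in iKO 3, iKO 4 and iKO 33. All 3 libraries labelled iKO were above all 3 labelled WT, and they lay within 1 CPM of each other. The log2 fold change was 0.47 (SE 0.13, interval 0.15 to 0.79), a level 38.5% higher, with an edgeR adjusted p of 0.183. DESeq2 also placed it just outside the threshold (adjusted p = 0.0523), and the adjusted p was between that value and 0.414 over all alternatives. The annotation lists a processed pseudogene, Gm3362, and an antisense RNA gene, Gm49085, that overlap the Rrm2b gene. Gm3362 lies on the same strand as Rrm2b, so strand cannot tell its reads apart. Gm49085 lies on the other strand, but an unstranded kit was used, so its reads cannot be told apart by strand either.

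Ratios of counts within a library need no scaling between libraries. The log2 ratio of Rrm2b to Rrm1 was -5.63, -5.43 and -5.30 in WT 2, WT 3 and WT 4 and -4.62, -4.70 and -4.49 in iKO 3, iKO 4 and iKO 33. The groups were clearly apart: the difference of 0.85 in the mean log2 ratio, 1.80-fold, was several times the SD within either group (0.16 and 0.11, n = 3). For Rrm2b to Rrm2 the log2 ratio was -5.56, -4.82 and -5.06 against -4.35, -4.52 and -3.95, a difference of 0.87 or 1.83-fold, again with no overlap. The exact two-sided permutation p was 0.1 for both pairs, the smallest that 3 against 3 libraries allow, and 0.3 after Benjamini-Hochberg adjustment over the 6 pairs examined. Per kilobase of exon, Rrm2b supplied 1.01%, 1.67% and 1.42% of small subunit transcripts in WT 2, WT 3 and WT 4 and 2.30%, 2.05% and 3.03% in iKO 3, iKO 4 and iKO 33. Rrm2 therefore remained the main small subunit transcript in every library, with Rrm2b a minor part that was larger in each library labelled iKO.

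Rrm2 and Rrm1, the pair of subunits made for S phase, showed no such difference in proportion. The log2 ratio of Rrm2 to Rrm1 was -0.31 ± 0.27 in the libraries labelled WT and -0.33 ± 0.19 in those labelled iKO (SD, n = 3), a difference of -0.027 (exact two-sided permutation p = 0.9, adjusted p = 0.9). The sign of that difference turned when WT 2, WT 4 or iKO 33 was left out (0.090, 0.0066 and 0.079). Single libraries spread widely around the mean, from -0.61 in WT 3 to -0.071 in WT 2, so a shift smaller than this spread was not detectable.

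**Figure D2:**
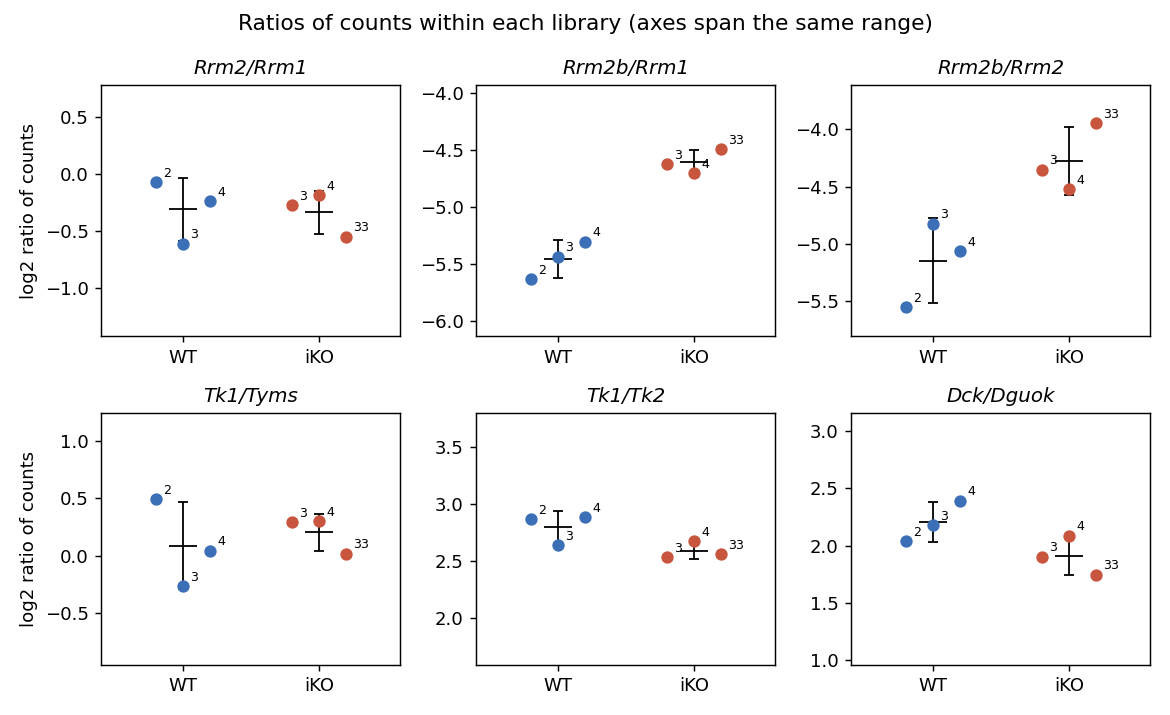
Log2 ratios of raw counts of gene pairs within each library (points, numbered by library), with the group mean and SD (n = 3); all panels span the same log2 range. Rrm2b/Rrm1 and Rrm2b/Rrm2 are higher in every library labelled iKO, by 0.85 and 0.87 in the mean, while the groups overlap for the other 4 pairs.

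In the thymidylate branch Dctd and Dtymk had the largest differences, which were not tested against those of Dut and Tyms. Dctd (chromosome 8, 48099092 to 48153233, plus strand), dCMP deaminase, measured 41.6, 35.9 and 39.7 CPM in WT 2, WT 3 and WT 4 and 23.2, 26.4 and 25.2 CPM in iKO 3, iKO 4 and iKO 33. The gap between the groups was wider than the spread within either. Its log2 fold change was -0.65 (SE 0.12, interval -0.92 to -0.37), a level 36.1% lower, and it ranked 127 of the tested genes by p. The edgeR adjusted p of 0.0863 missed the threshold, that of DESeq2 was 0.000521, and the alternatives reached 0.297.

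Dtymk (chromosome 1, 93792576 to 93801934, minus strand), thymidylate kinase, measured 64.4, 72.9 and 73.4 CPM in WT 2, WT 3 and WT 4 and 37.4, 51.7 and 43.5 CPM in iKO 3, iKO 4 and iKO 33. All libraries labelled iKO were below all labelled WT, with iKO 4 the nearest to them. Its log2 fold change was -0.67 (SE 0.15, interval -1.01 to -0.32), with an adjusted p of 0.123 in edgeR, 0.00815 in DESeq2 and up to 0.320 over the alternatives. Tested genes of chromosome 1 had a median log2 fold change of -0.26 (672 genes), whereas the medians of the other chromosomes that carry these enzyme genes lay between -0.093 (chromosome 2) and 0.12 (chromosome 8, that of Dctd). The part of the chromosome 1 shift in the Dtymk value was not tested.

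Tyms and Dut, which make dTMP and dUMP, had groups that overlapped. Tyms (chromosome 5, 30058202 to 30073617, minus strand), thymidylate synthase, measured 72.4, 92.7 and 90.0 CPM in WT 2, WT 3 and WT 4 and 67.3, 75.1 and 82.9 CPM in iKO 3, iKO 4 and iKO 33. The groups overlapped, because WT 2 lay below iKO 4 and iKO 33. Tyms had a log2 fold change of -0.18 (SE 0.14, interval -0.51 to 0.15; edgeR adjusted p = 0.604), and its pseudogene, Tyms-ps, held between 0 and 4 counts. The value for Tyms moved with the libraries used, from -0.11 without iKO 3 (and without WT 3) to -0.28 without WT 2, and was -0.36 when libraries 3 and 4 were compared within their numbers. Dut (chromosome 2, 125247190 to 125258608, plus strand), dUTPase, measured 79.8, 58.8 and 82.3 CPM against 52.2, 72.2 and 51.6 CPM. WT 3 and iKO 4 lay inside the range of the other group, and the log2 fold change of -0.33 (SE 0.19, interval -0.78 to 0.12; edgeR adjusted p = 0.471) went from -0.24 without iKO 33 to -0.50 without iKO 4. For both genes the interval holds 0 and also values as low as those of Rrm1, so a difference of that size could go unseen at this number of libraries.

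Of the salvage kinases, Tk1 had groups that overlapped and Dck had groups apart. Whether these genes differ from each other was not tested, and their intervals overlap. Tk1 (chromosome 11, 117815526 to 117826092, minus strand), the S phase thymidine kinase, measured 102, 76.9 and 92.6 CPM in WT 2, WT 3 and WT 4 and 82.3, 92.5 and 83.9 CPM in iKO 3, iKO 4 and iKO 33. The libraries labelled iKO all lay within the range of those labelled WT. The log2 fold change was -0.068 (SE 0.13, interval -0.38 to 0.25; edgeR adjusted p = 0.857), and its sign turned without WT 2 (0.024). Tk1 overlaps Afmid and Gm20708 on the other strand. The count of Afmid was low (1.62 ± 0.558 against 1.67 ± 0.200 CPM), and that of Gm20708 was not examined. Dck (chromosome 5, 88764996 to 88783281, plus strand), deoxycytidine kinase, measured 49.9, 54.1 and 62.4 CPM against 40.9, 47.0 and 45.8 CPM. Its groups were apart by a narrow margin between WT 2 and iKO 4. Dck had a log2 fold change of -0.31 (SE 0.13, interval -0.62 to -0.014), which did not pass after adjustment (edgeR adjusted p = 0.314).

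Against their mitochondrial counterparts the salvage kinases had ratios with overlapping groups. The log2 ratio of Tk1 to Tk2 was 2.80 ± 0.14 in the libraries labelled WT and 2.59 ± 0.075 in those labelled iKO, and that of Dck to Dguok 2.20 ± 0.18 and 1.91 ± 0.17 (SD, n = 3). The exact two-sided permutation p was 0.2 for each, and 0.3 after adjustment over the 6 pairs. Tk1 to Tyms, salvage against synthesis of dTMP, stood at 0.088 ± 0.38 and 0.20 ± 0.16 (exact permutation p = 0.7, adjusted p = 0.84). That last difference turned to -0.063 without WT 3.

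**Figure D3:**
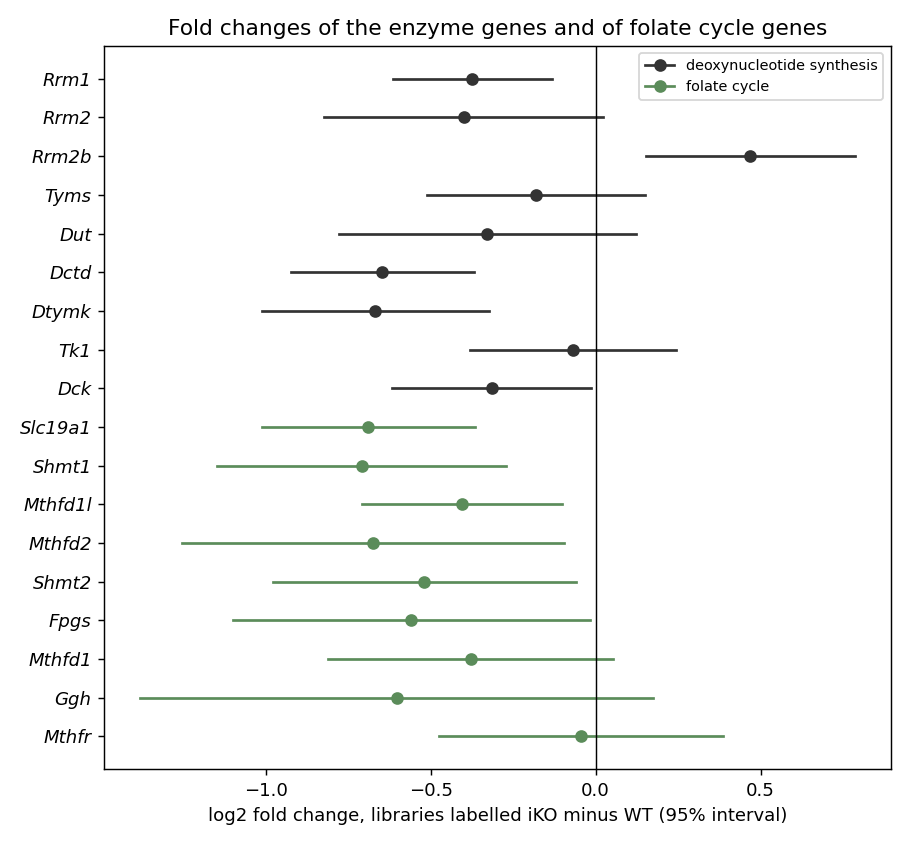
Log2 fold changes (libraries labelled iKO minus WT) with approximate 95% intervals from the edgeR fit for the 9 enzyme genes (dark) and 9 folate cycle genes (green). Values run from -0.71 for Shmt1 to 0.47 for Rrm2b, the only positive value plotted, and none passes the adjusted threshold in edgeR.

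The authors' deposited table gives a DESeq2 result for iKO against WT, and its headers do not name the libraries used. In it, 4 of the 9 genes had an adjusted p under 0.05, where 5.90% of its 12491 genes with an adjusted p did. These were, in the authors' deposited table, Dctd (log2 fold change -0.61, adjusted p = 0.000319), Dtymk (-0.62, adjusted p = 0.00747), Rrm1 (-0.36, adjusted p = 0.0348) and Rrm2b (0.44, adjusted p = 0.0410). The authors' deposited table thus places Rrm2b inside the threshold that it just misses in the DESeq2 fit made here (adjusted p = 0.0523).

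Other genes of nucleotide metabolism were described as 5 lists holding 54 genes, of which 51 were tested. None passed an adjusted p of 0.05 in edgeR, 13 were lower at an unadjusted p under 0.05 with the iKO label (background 7.70%), and 1 was higher (background 7.32%). In all, 38 were lower and 13 higher, with a median log2 fold change of -0.21 against 0.0091 for all tested genes.

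The folate cycle, which supplies the methyl group for thymidylate and carbon for purines, had a lower level for all 9 of the listed genes, with a median log2 fold change of -0.56. Of these, 6 had an unadjusted p under 0.05 in edgeR (7.70% of all tested genes were lower at that p), 4 had groups that did not overlap (11.3% of all), and DESeq2 called 2, Slc19a1 and Shmt1 (2.63% of all). Slc19a1, the reduced folate carrier, measured 61.4, 47.0 and 52.5 CPM in WT 2, WT 3 and WT 4 and 36.3, 31.4 and 32.0 CPM in iKO 3, iKO 4 and iKO 33. The groups did not overlap, and the log2 fold change was -0.69 (SE 0.14, edgeR adjusted p = 0.105, DESeq2 adjusted p = 0.00184). Mthfd1l, a mitochondrial enzyme that releases formate, measured 145, 150 and 115 CPM against 108, 98.4 and 103 CPM. Its groups were also apart, with a log2 fold change of -0.41 (SE 0.13, edgeR adjusted p = 0.219). Shmt1, the cytosolic serine hydroxymethyltransferase, had a log2 fold change of -0.71 (SE 0.19, edgeR adjusted p = 0.170), from 57.3 ± 2.73 to 35.0 ± 8.41 CPM (SD, n = 3).

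Purine synthesis genes were lower in 12 and higher in 2 of 14 tested cases (median -0.19). Ppat, which commits the pathway, had a log2 fold change of -0.52 (SE 0.13, edgeR adjusted p = 0.156), with 93.0 ± 3.31 CPM in the libraries labelled WT and 64.8 ± 8.83 in those labelled iKO (SD, n = 3). Guk1, guanylate kinase, stood at -0.33 (SE 0.11) and Atic, which completes the purine ring and lies on chromosome 1, at -0.66 (SE 0.25). Pyrimidine synthesis genes were evenly divided, 4 lower and 4 higher (median -0.054): Umps, Dhodh and Cad, the enzymes of the pathway to UMP, had log2 fold changes of -0.49, -0.34 and -0.34, whereas the highest value was 0.22 for Ctps2, a CTP synthase. None of the genes named here passed in edgeR (adjusted p between 0.156 and 0.665). DESeq2 called Ppat (adjusted p = 0.0292), beside 2.63% of the genes it tested called lower.

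Genes that break down, salvage or transport nucleotides were mixed, with 10 lower and 5 higher of 15 tested (median -0.18). The nucleoside transporter Slc29a2 stood at 12.0 ± 0.738 CPM with the WT label and at 6.54 ± 2.21 with the iKO label (SD, n = 3). Its log2 fold change was -0.87 (SE 0.27, edgeR adjusted p = 0.219). Pnp, purine nucleoside phosphorylase, had a log2 fold change of 0.66 (SE 0.27, edgeR adjusted p = 0.311), and Nt5m, a mitochondrial deoxyribonucleotidase, of -0.37 (SE 0.15, edgeR adjusted p = 0.321). The mitochondrial kinases Tk2 (0.14, SE 0.13) and Dguok (-0.011, SE 0.15) were near 0. Of the 5 genes linked to the reduction or inhibition of ribonucleotide reductase, 3 were lower and 2 higher (median -0.017). Gsr, glutathione reductase, stood at -0.80 (SE 0.22, edgeR adjusted p = 0.180), Glrx, glutaredoxin, at -0.40 (SE 0.35) and Txn1, thioredoxin, at 0.19 (SE 0.18). DESeq2 called Gsr (adjusted p = 0.0321), where it called 2.63% of the genes it tested lower.

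**Figure D4:**
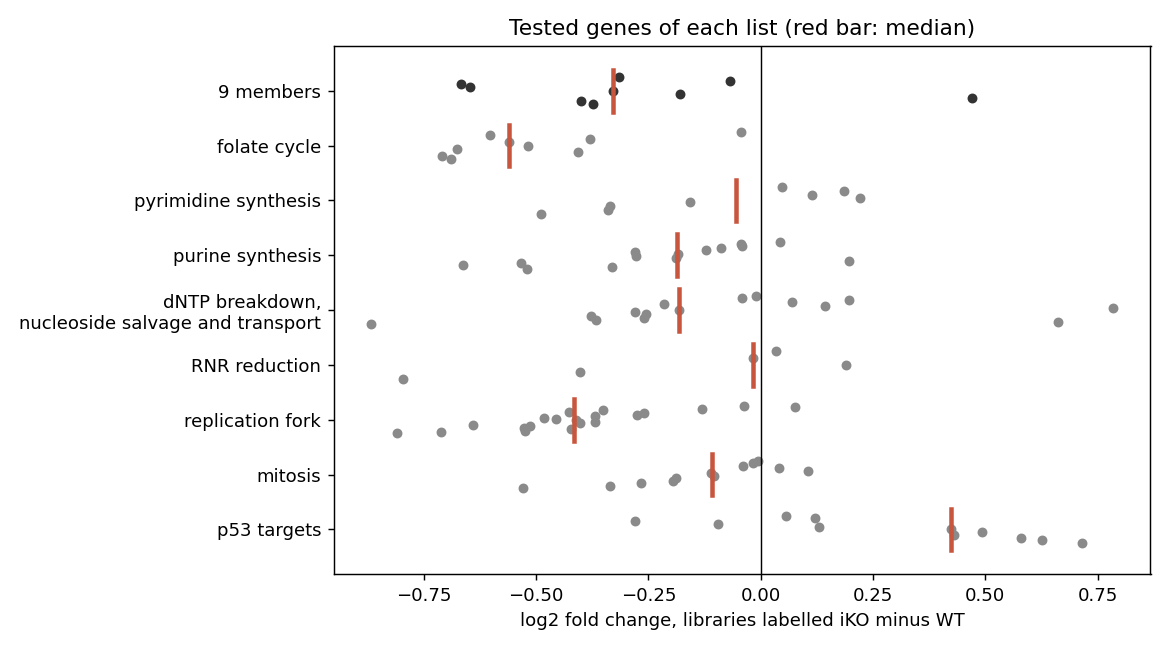
Log2 fold changes of the tested genes in each list (points, libraries labelled iKO minus WT), with the list median as a red bar. The folate cycle (median -0.56), replication fork (-0.42) and the 9 enzyme genes (-0.33) lie mostly below 0, and the p53 targets (median 0.42) mostly above it.

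Genes of the replication fork and p53 targets were read in the same libraries because they bear on S phase and on Rrm2b. Of 20 fork genes, 19 were lower (median -0.42) and 1 passed in edgeR: Mcm6, a helicase subunit, fell by 0.81 (SE 0.10, adjusted p = 0.0361). The next genes by p, Mcm3 (-0.71, SE 0.13) and the sliding clamp gene Pcna (-0.52, SE 0.13), missed the edgeR threshold, with an adjusted p of 0.0762 and 0.147. DESeq2 called 6 of the 20 fork genes lower, Mcm6, Mcm3 (adjusted p = 0.000376) and Pcna (adjusted p = 0.0226) among them, beside 2.63% of all the genes it tested. Mcm6 and Mcm3 lie on chromosome 1, and the part of its median of -0.26 in their values was not tested. The mean log2 CPM of the 9 enzyme genes minus that of the 20 fork genes was 0.10, 0.19 and 0.038 in WT 2, WT 3 and WT 4 and 0.18, 0.19 and 0.31 in iKO 3, iKO 4 and iKO 33. On that scale, not corrected for transcript length, the enzyme genes were level with the fork genes or slightly above them in every library. The groups overlapped, and the 9 genes include Rrm2b, which was higher with the iKO label. Of 12 mitosis genes, 10 were lower (median -0.11), among them Ccna2 (-0.53, SE 0.14), Ccnb1 (-0.33, SE 0.13) and Aurkb (-0.27, SE 0.19), none of which passed in edgeR; DESeq2 called Ccna2 (adjusted p = 0.0426). Of 11 tested p53 targets, 9 were higher (median 0.42), and none passed in edgeR. The highest were Cdkn1a (0.72, SE 0.14), Sesn2 (0.63, SE 0.14) and Mdm2 (0.58, SE 0.13), which DESeq2 called, as it did 2.93% of the genes it tested in that direction; Rrm2b, at 0.47, lay below these 3. The part of p53 or of the share of cells in S phase in the values of the enzyme genes was not tested.

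Likeness of profile was measured as the root mean square difference between log2 CPM values of the 6 libraries, each centred on its own mean, over 7476 other genes with a mean log2 CPM of at least 4. Among the genes most like Rrm2 were Fanca (0.0408), Pkmyt1 (0.0602), Mcm5 (0.0674) and Kif20a (0.0700 log2 units). Those most like Rrm2b were Npepps (0.0514), Kif3a (0.0590), Crb3 (0.0593), Chd9 (0.0612) and Cdc37l1 (0.0628). Among the enzyme genes, Dut (0.160) and Rrm1 (0.193) were nearest to Rrm2, and Rrm2b was farthest from it (0.516).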

How the data were processed

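Libraries came from 2 µg of total RNA each (TruSeq RNA v2), per the labels' protocols. Per the submitters' processing notes, the build was mm10 and the tools were HTSeq, TopHat2, DESeq and DESeq2, with no versions. The first deposited table holds raw counts per gene symbol, as whole numbers; its 5 HTSeq summary rows (34.8% to 35.5% of a library labelled WT and 27.4% to 32.0% of one labelled iKO) were left out. The other, per the file headers, is a DESeq2 result with a mean signal, log2 fold changes, a Wald score and p-values, whose settings the labels do not record. The column numbered 33 matches no iKO title and entered the iKO group without a replicate number.

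Counts were tested with edgeR 4.0.16 in R 4.3.3: filterByExpr (minimum count 10), TMM scaling, robust glmQLFit and glmQLFTest, two-sided, with Benjamini-Hochberg adjustment over all tested genes at 0.05. The SE was derived from the fold change and its F statistic, and the intervals rest on it. Log2 CPM used a prior count of 2. DESeq2 1.42.0, limma-voom (limma 3.58.1), other scaling factors, no filter, a replicate block and leaving out each library were the alternatives. Libraries of a group differed by more than sampling noise (chi-square per degree of freedom of at least 48.6). Positions and exon lengths, taken as the union of basic transcripts, are from GENCODE M21. The genes and lists were chosen with earlier results of these data known. The text names all 9 genes, the 3 genes with the smallest p of each list of nucleotide metabolism or cell state, the ratio partners and the 5 genes most like Rrm2 and Rrm2b; Ctps2 was named after its value was seen, and 2 of the genes that these rules take are not reported here.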

Additional observations from a re-analysis of the deposited data

How the results depend on the processing

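Of the 9 enzyme genes, the count past an adjusted p of 0.05 was 0 in every edgeR and limma-voom fit (5 at an unadjusted p under 0.05 as reported) and 3 in DESeq2. That of the 54 other genes of nucleotide metabolism was 0, and 4 in DESeq2. Over all the genes that it tested, DESeq2 called 2.63% lower and 2.93% higher. The cause of the different counts was not tested. Leaving out 1 library at a time moved the number of enzyme genes lower without overlap between 4 and 7, the latter without WT 3, against 15.1% to 18.0% of all tested genes over the same fits. Over these fits the median of the folate cycle ran from -0.65 to -0.44 (without iKO 3), pyrimidine synthesis from -0.12 to -0.015, purine synthesis from -0.23 to -0.12, breakdown and salvage from -0.19 to -0.052, and reductase reduction from -0.18 to 0.050. Tyms ranged from -0.28 to -0.11 and Tk1 from -0.17 to 0.024, turning its sign without WT 2, and stood at 0.047 under the replicate block. The group difference in the log2 ratio of Rrm2 to Rrm1 ranged from -0.18 to 0.090 and that of Tk1 to Tyms from -0.063 to 0.32.

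With the replicate number as a block, fitted to the libraries numbered 3 and 4, Dctd stood at -0.61, Dtymk at -0.73, Rrm1 at -0.32, Rrm2 at -0.13, Rrm2b at 0.38, Tyms at -0.36, Dut at -0.18, Dck at -0.41 and the purine median at -0.10, with 0 enzyme genes past the threshold and 103 genes in all. The differences between libraries 3 and 4 correlated across genes between groups (r = 0.60), which is a hint only, since there are just 2 such numbers. With 3 libraries a group, exact permutation tests cannot go below 0.1.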
